A study of Mus musculus with 9 samples.

Results

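The genes described here are 33 mouse genes of the type I interferon response, among them the cytoplasmic RNA sensors, taken by their symbols from the 55450 genes listed for each library. Of the 33, 24 were among the 12441 genes that reached 1 FPKM in at least 3 libraries and were tested. Interferons are secreted proteins that bind receptors on the cell surface, and the Janus kinases at these receptors switch on a transcription factor complex that contains STAT2 and IRF9. That complex binds a short DNA motif, the interferon-stimulated response element, near the start of many genes whose products block viruses at many steps. The helicases encoded by Ddx58 (RIG-I), Ifih1 (MDA5) and Dhx58 (LGP2) recognise unusual RNA in the cytoplasm and can start the same response in cells that are not immune cells, and their own genes are interferon-stimulated.

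The study asked how O-GlcNAcylation, the attachment of a single sugar to nuclear and cytoplasmic proteins, bears on senescence in the cells of joint cartilage, here primary cultures of mouse articular chondrocytes. All cultures grew at 3% oxygen with 10% serum, and those of every group were first exposed to hyaluronidase at 4 U/mL for 4 h without serum. The first group of 3 libraries had a 24 h exposure to the DNA-breaking drug bleomycin at 50 µg/mL and then 20 µM ST045849, an inhibitor of the enzyme O-GlcNAc transferase, for 5 days. The second group of 3 received the same bleomycin and then the solvent DMSO for 5 days, and the third, called vehicle below, received PBS for 24 h and then DMSO for 5 days, also 3 libraries. Medium was renewed every 48 h. Cells given ST045849 without bleomycin were not analysed here, so the inhibitor was measured only on top of bleomycin. The labels give no strain, age or sex, and nothing in them ties a group's libraries to different mice or dishes. The p-values below therefore measure only how far these libraries spread, which may be technical.

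Expression was given as FPKM, fragments scaled to the length of the transcript and the size of the library, with no counts, so the depth of each library is unknown. Between 20355 and 23218 genes were above 0 FPKM in a library. The chondrocyte genes Col2a1 and Acan were at 9477 to 24070 FPKM and 292 to 1508 FPKM over the 9 libraries, and the summed level of 9 chondrocyte markers was 15200 to 21940 FPKM with bleomycin plus ST045849, 18380 to 26090 FPKM with bleomycin and 24600 to 33910 FPKM with vehicle. The summed level of 13 macrophage markers was 12.2 to 18.2 FPKM with bleomycin plus ST045849, 11.2 to 12.9 FPKM with bleomycin and 3.33 to 6.34 FPKM with vehicle. Of these markers 3 were tested, Lyz2, Cd68 and Cd14, and all 3 rose in both comparisons with vehicle. Of all tested genes, 4.2% rose for bleomycin and 8.11% for bleomycin plus ST045849 against vehicle. C1qb, C1qc, Tyrobp and Fcgr1 were listed at 0 in all 9 libraries, and Ptprc, which encodes the pan-leukocyte protein CD45, reached at most 0.02 FPKM. Markers of lymphoid and plasmacytoid dendritic cells reached at most 0.0236 FPKM in any library. Among 8 tested markers of fibroblasts and synovial cells, 4 rose with bleomycin against vehicle and 3 with bleomycin plus ST045849 against vehicle. The same 4.2% and 8.11% of all tested genes stand beside these counts. The part of these other cell types in the results below was not tested, and in bulk RNA fewer cells of a type and less RNA per cell cannot be told apart.

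The DNA next to several of these genes holds the motif that the complex with STAT2 and IRF9 is known to bind, and it is shown here because it is a property of these genes apart from their levels. Promoters of RefSeq on build GRCm38.p6, each a window around an annotated start, were found by symbol for 24 of the 33 genes. The core motif, GAAA, any 2 bases and GAAA again, searched on both strands and with overlaps allowed, was present in 13 of these 24 genes, against 3.99% of the 27025 genes in the table. The longer form, the core followed by CT, was present in 9 of the 24 genes and in 0.303% of all genes. The core of the gamma-activated site, TTCNNNGAA, was present in 5 of the 24 and in 9.55% of all genes. The stretches below run 5′ to 3′ on the strand of the gene, and capitals mark the bases of the core motif in either orientation.
Isg15: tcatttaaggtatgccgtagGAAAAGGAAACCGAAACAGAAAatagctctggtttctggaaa
Ifit1: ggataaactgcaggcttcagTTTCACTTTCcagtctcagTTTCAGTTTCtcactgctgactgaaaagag
Ifit3: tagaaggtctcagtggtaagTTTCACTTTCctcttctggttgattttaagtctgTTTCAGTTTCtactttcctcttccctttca
Oas1a: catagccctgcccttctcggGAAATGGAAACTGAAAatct
Bst2: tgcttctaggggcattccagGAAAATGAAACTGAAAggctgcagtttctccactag
Stat2: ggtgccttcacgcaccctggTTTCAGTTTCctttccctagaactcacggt
Rsad2: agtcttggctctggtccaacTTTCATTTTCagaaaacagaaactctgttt
Gbp7: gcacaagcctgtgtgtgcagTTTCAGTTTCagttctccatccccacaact

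The Isg15 stretch lies at chr4:156200855-156200916 on the minus strand and holds 3 overlapping copies of the core within 78 bases of the start. The Ifit1 stretch, at chr19:34640765-34640833 on the plus strand, holds 2 separate copies. The Ifit3 stretch, at chr19:34583353-34583436 on the plus strand, also holds 2, and the same 84 bases stand letter for letter before Ifit3b at chr19:34607749-34607832, on the plus strand. The Oas1a stretch at chr5:120907526-120907565 and the Bst2 stretch at chr8:71537567-71537622, both on the minus strand, each hold 2 overlapping copies. Single copies stand before Stat2 at chr10:128270256-128270305 on the plus strand, Rsad2 at chr12:26456543-26456592 on the minus strand, and Gbp7 at chr3:142530263-142530312 on the plus strand. A match describes the letters only: Stat2, which holds the motif, was called in neither comparison with vehicle and Gbp7, which holds it too, was too low to test, while Xaf1 and Irf9, without it in this window, were called in both comparisons with vehicle.

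For bleomycin against vehicle, measured after 5 days in medium without the drug, the changes called among these genes were all rises. Of the 24 genes tested, 14 rose, none fell and 10 did not pass an adjusted p of 0.05 (limma on log2(FPKM + 1), all 9 libraries, Benjamini-Hochberg over 12441 genes), where 4.2% of all tested genes rose and 0.675% fell. All 24 were higher on average with bleomycin, with a median log2 change of 1.26 against 0.10 for all tested genes. Of the 33 genes, 27 had every bleomycin library above every vehicle library, as did 15.9% of the 30298 genes above 0 FPKM somewhere, and none had the reverse, as 4.03% did. A gene with vehicle libraries near 0 entered the test only through its higher libraries: 10 of the 24 had every vehicle library under 1 FPKM, and 8 of those 10 were called. The 8 were Ifit1, Ifit3b, Mx2, Usp18, Ifih1, Rtp4, Gbp2 and Dtx3l, and those not called were Oas1a and Ifi44. The filter itself favoured a rise in these 10 genes. Among the 11 whose vehicle libraries were all at 1 FPKM or more, 5 were called, namely Irf9, Ddx58, Bst2, Xaf1 and Parp9. Log2 changes on this scale understate the change of genes with low FPKM.

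**Figure D1:**
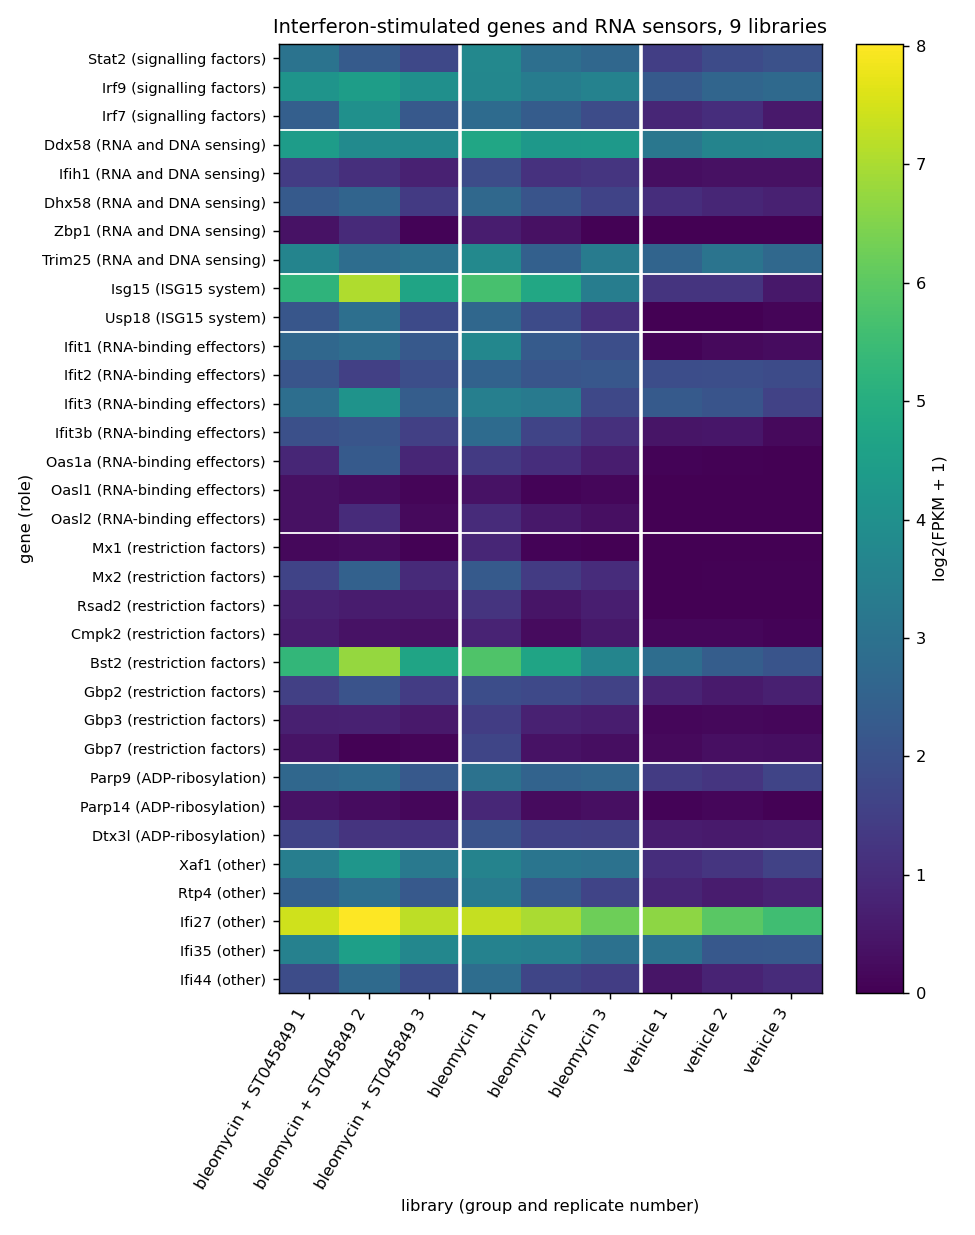
Level of the 33 genes in each of the 9 libraries as a colour on the log2(FPKM + 1) scale, with genes in rows by role and libraries in columns, bleomycin plus ST045849 at the left, bleomycin in the middle and vehicle at the right. The brightest cells, above 100 FPKM, are in the rows of Isg15, Bst2 and Ifi27, and the vehicle columns are darker than the others in most rows, Ifit2 and Trim25 being among the exceptions.

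Isg15 and Usp18 encode a ubiquitin-like protein and the protease that removes it from its targets. Isg15 was at 36.2, 132 and 24.6 FPKM with bleomycin plus ST045849, at 50.2, 27.2 and 9.46 FPKM with bleomycin, and at 1.3, 1.3 and 0.43 FPKM with vehicle. Every library of either bleomycin group was above every vehicle library, and the 2 bleomycin groups overlapped. The log2 change of Isg15 was 3.65 ± 0.63 (SE) for bleomycin against vehicle, with a limma adjusted p of 0.00894, and 4.68 ± 0.63 for bleomycin plus ST045849 against vehicle, with an adjusted p of 0.0024. Usp18 was at 3.38, 6.57 and 2.5 FPKM with bleomycin plus ST045849, at 5.43, 2.57 and 1.15 FPKM with bleomycin, and at 0, 0 and 0.0812 FPKM with vehicle. Its groups were likewise apart from vehicle, with log2 changes of 1.84 ± 0.37 (limma adjusted p = 0.0192) and 2.25 ± 0.37 (adjusted p = 0.00571) for bleomycin and for bleomycin plus ST045849. The first of these calls was lost without bleomycin replicate 1 or 2 or any single vehicle library (adjusted p 0.0562 to 0.0778). Usp18 had every vehicle library under 1 FPKM and so entered the test only through its higher libraries.

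**Figure D2:**
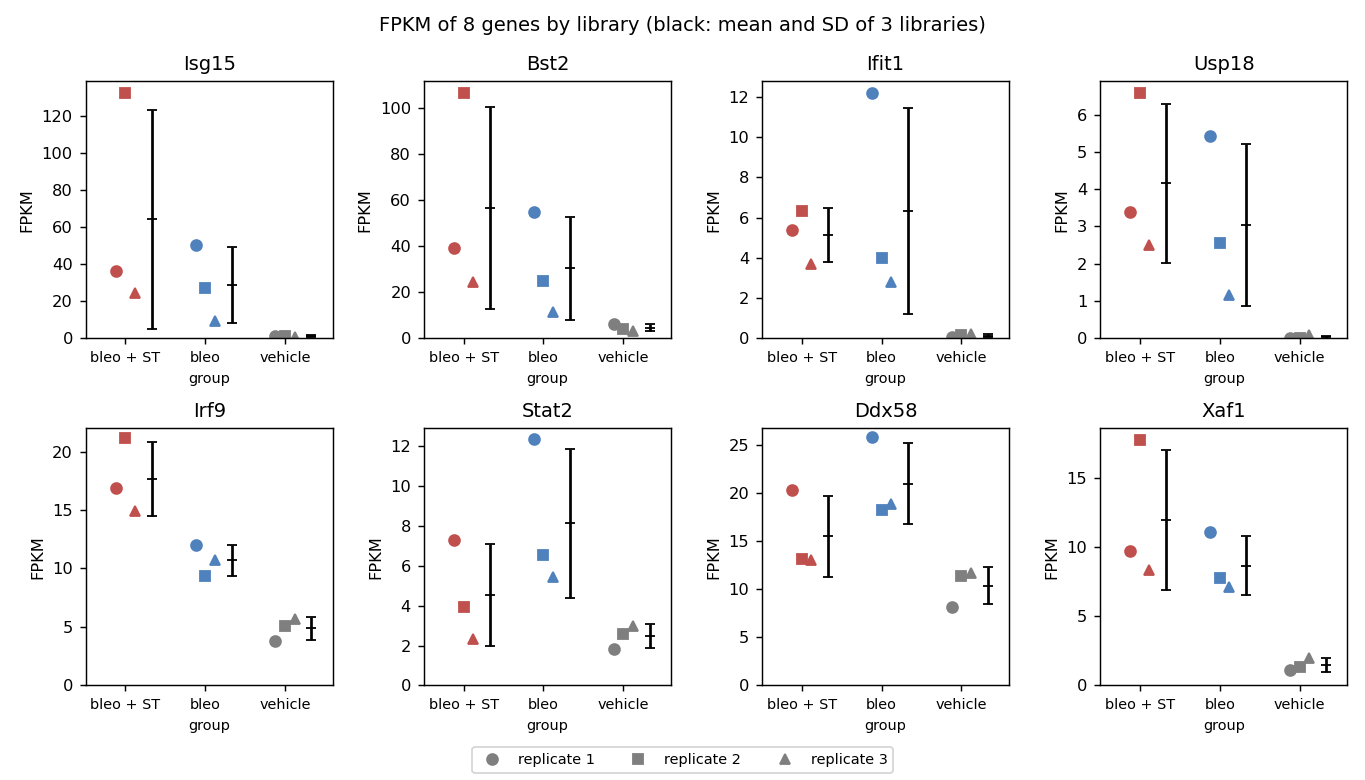
FPKM of 8 genes in each library, 1 panel a gene with its own axis, with bleomycin plus ST045849 (bleo + ST) left, bleomycin (bleo) in the middle and vehicle right; symbols mark the replicate number and black bars the mean ± SD of 3 libraries. In the Isg15 panel the 6 libraries that received bleomycin lie between 9.46 and 132 FPKM and the vehicle libraries at 1.3 FPKM or lower, and in the Irf9 panel the 3 groups are apart.

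Of the 3 genes for transcription factors of the pathway, Irf9 was called in both comparisons with vehicle, where 4.2% and 8.11% of all tested genes rose. Irf9 encodes the DNA-binding subunit of the complex described above. Its level was 16.9, 21.1 and 14.9 FPKM with bleomycin plus ST045849, 12, 9.38 and 10.8 FPKM with bleomycin, and 3.83, 5.06 and 5.72 FPKM with vehicle. The 3 groups did not overlap, and Irf9 was the only 1 of the 33 genes for which this held. The share of all genes with 3 groups apart was not counted. The log2 change was 1.00 ± 0.20 for bleomycin against vehicle (limma adjusted p = 0.0201) and 1.67 ± 0.20 for bleomycin plus ST045849 against vehicle (adjusted p = 0.00159). The first call was lost without any single bleomycin library or without vehicle replicate 1 or 2, with adjusted p between 0.0577 and 0.0899. Stat2, which encodes a subunit of the same complex, was at 7.32, 3.94 and 2.32 FPKM with bleomycin plus ST045849, at 12.4, 6.56 and 5.44 FPKM with bleomycin, and at 1.82, 2.58 and 3 FPKM with vehicle. The bleomycin libraries lay above the vehicle libraries without reaching the threshold (log2 change 1.34 ± 0.35, limma adjusted p = 0.0548; 0.0231 without ST045849 replicate 1 and 0.0403 without ST045849 replicate 3), while the libraries with ST045849 overlapped those of vehicle. Irf7, which encodes the factor that amplifies interferon production, was at 4.37, 15.1 and 3.72 FPKM with bleomycin plus ST045849, at 6.05, 4.01 and 2.62 FPKM with bleomycin, and at 0.815, 1.06 and 0.46 FPKM with vehicle. It did not pass for bleomycin against vehicle (1.52 ± 0.42, limma adjusted p = 0.065, and 0.00817 without ST045849 replicate 2), and it rose for bleomycin plus ST045849 against vehicle (2.07 ± 0.42, adjusted p = 0.0135, and 0.0616 without vehicle replicate 3).

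For 4 of the 5 genes of RNA and DNA sensing every bleomycin library was above every vehicle library. So it was for 15.9% of all genes above 0 FPKM in at least 1 library. Of the 4 tested 2 rose, as did 4.2% of all tested genes. Of these 2, Ifih1 had every vehicle library under 1 FPKM and so entered the test only through its higher libraries. Ddx58 was at 20.4, 13.2 and 13 FPKM with bleomycin plus ST045849, at 25.8, 18.2 and 18.8 FPKM with bleomycin, and at 8.12, 11.3 and 11.6 FPKM with vehicle, so this sensor was above 8 FPKM in the vehicle libraries too. Its log2 change was 0.95 ± 0.24 for bleomycin against vehicle (limma adjusted p = 0.0456) and 0.52 ± 0.24 for bleomycin plus ST045849 against vehicle (adjusted p = 0.159). The call was held only without ST045849 replicate 1 or 2: without each of the other 7 libraries the adjusted p was 0.0525 to 0.184. It was also lost under 8 of the 10 other processing settings tried (adjusted p up to 0.131). Ifih1 was at 1.67, 1.13 and 0.65 FPKM with bleomycin plus ST045849, at 2.62, 1.2 and 1.34 FPKM with bleomycin, and at 0.227, 0.278 and 0.281 FPKM with vehicle. It rose by 1.07 ± 0.23 for bleomycin against vehicle (limma adjusted p = 0.0244) and was at 0.74 ± 0.23 for bleomycin plus ST045849 against vehicle (adjusted p = 0.0618, and 0.0452 without bleomycin replicate 1). The first call was lost without bleomycin replicate 1 or 3 or any vehicle library (adjusted p 0.0545 to 0.0887). Dhx58 was at 3.79, 4.94 and 1.59 FPKM with bleomycin plus ST045849, at 5.53, 3.27 and 2.09 FPKM with bleomycin, and at 1.05, 0.802 and 0.664 FPKM with vehicle. Its log2 change was 1.27 ± 0.33 for bleomycin against vehicle (limma adjusted p = 0.0517, and 0.0271 to 0.0491 without any single library with ST045849) and 1.19 ± 0.33 for bleomycin plus ST045849 against vehicle (adjusted p = 0.0432, and 0.0537 to 0.144 without ST045849 replicate 1 or 2, bleomycin replicate 2 or vehicle replicate 2 or 3). Trim25, the ubiquitin ligase that acts on RIG-I, was at 6.25 to 11.4 FPKM with bleomycin plus ST045849, 4.48 to 12.6 FPKM with bleomycin and 5.02 to 7.46 FPKM with vehicle, and its groups overlapped. Zbp1, whose product senses Z-form nucleic acids, was not tested: it reached 0.944 FPKM with bleomycin plus ST045849 and 0.557 FPKM with bleomycin, and was at 0.0124 FPKM in 1 vehicle library and listed at 0 in the other 2.

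Of the RNA-binding effectors, Ifit1 stood furthest from vehicle by its test. Ifit1, Ifit3b and Oas1a had every vehicle library under 1 FPKM and so entered the test only through their higher libraries. The IFIT proteins bind foreign RNA by its 5′ end, and 4 of their genes lie side by side on chromosome 19, in the order Ifit2, Ifit3, Ifit3b and Ifit1 over 34550694 to 34650009 (GRCm38). Ifit1 was at 5.38, 6.35 and 3.69 FPKM with bleomycin plus ST045849, at 12.2, 3.97 and 2.78 FPKM with bleomycin, and at 0.0527, 0.145 and 0.209 FPKM with vehicle. Its log2 changes against vehicle were 2.47 ± 0.38 with bleomycin (limma adjusted p = 0.00553) and 2.41 ± 0.38 with bleomycin plus ST045849 (adjusted p = 0.00493). Ifit2, at the other end of the cluster, was at 3.35, 1.87 and 2.84 FPKM with bleomycin plus ST045849, at 4.71, 3.28 and 3.52 FPKM with bleomycin, and at 2.69, 2.8 and 2.53 FPKM with vehicle. The vehicle libraries of Ifit2 were thus above 1 FPKM where those of Ifit1 were all near 0. Ifit2 was not called in either comparison (limma adjusted p = 0.362 and 0.963). Ifit3 and Ifit3b share 51.2% and 45% of their 50-base stretches with other genes, nearly all with each other, so the split of reads between them is uncertain. Ifit3 had means of 9.05, 7 and 3.03 FPKM and Ifit3b 2.69, 3.1 and 0.31 FPKM with bleomycin plus ST045849, bleomycin and vehicle. Ifit3b was called against vehicle in both comparisons (1.47 ± 0.36, limma adjusted p = 0.0392, and 1.48 ± 0.36, adjusted p = 0.0275) and Ifit3 in neither. Leaving out bleomycin replicate 1 or 2, ST045849 replicate 3 or any vehicle library ended the first call of Ifit3b (adjusted p 0.0504 to 0.146), and leaving out ST045849 replicate 2 or vehicle replicate 2 or 3 ended the second (0.088 to 0.106).

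The OAS enzymes make the messenger that activates RNase L on double-stranded RNA, and the OASL proteins are their relatives. Oas1a was at 0.827, 3.81 and 0.802 FPKM with bleomycin plus ST045849, at 1.57, 1.08 and 0.552 FPKM with bleomycin, and at 0.0629, 0.0438 and 0 FPKM with vehicle. Every library of both bleomycin groups was above every vehicle library, and the call was made for bleomycin plus ST045849 (1.28 ± 0.34, limma adjusted p = 0.0394) and not for bleomycin (0.97 ± 0.34, adjusted p = 0.146, and 0.0188 without ST045849 replicate 2). The call was lost without ST045849 replicate 2, bleomycin replicate 2 or any vehicle library (adjusted p 0.0507 to 0.128). Oas1a shares 57.6% of its 50-base stretches with Oas1g, so its level is uncertain. Oasl1 and Oasl2 were not tested: their highest values were 0.294 and 0.977 FPKM with bleomycin plus ST045849, 0.326 and 0.965 FPKM with bleomycin, and 0.0128 and 0.0179 FPKM with vehicle, with each bleomycin library above every vehicle library.

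Among the 8 genes of restriction factors, which act on viral particles, capsids or replication, 3 were tested, and these rose in both comparisons with vehicle, where 4.2% and 8.11% of all tested genes rose. Of the 3, Gbp2 and Mx2 had every vehicle library under 1 FPKM and so entered the test only through their higher libraries. Bst2, for the protein tetherin that holds budding virus at the membrane, was at 39, 106 and 24.5 FPKM with bleomycin plus ST045849, at 54.8, 24.7 and 11.4 FPKM with bleomycin, and at 6.3, 4.19 and 3.22 FPKM with vehicle. Its log2 changes were 2.27 ± 0.57 (limma adjusted p = 0.0468) for bleomycin and 3.14 ± 0.57 (adjusted p = 0.00855) for bleomycin plus ST045849. Every bleomycin library was above every vehicle library, and the first call was lost without bleomycin replicate 1 or 2 or any vehicle library (adjusted p 0.0769 to 0.162). Gbp2, a guanylate-binding GTPase that attacks the membranes around pathogens, had means of 2.23 ± 0.776, 2.38 ± 0.371 and 0.617 ± 0.116 FPKM (SD, n = 3 each) with bleomycin plus ST045849, bleomycin and vehicle. It was called for bleomycin (1.06 ± 0.19, limma adjusted p = 0.0123) and for bleomycin plus ST045849 (0.98 ± 0.19, adjusted p = 0.0131). Those calls were lost without vehicle replicate 2 or 3, and the first also without bleomycin replicate 1 or 2 (adjusted p 0.0551 to 0.0721). Mx2, a dynamin-like GTPase that the annotation marks as a polymorphic pseudogene, was at 2.05, 4.57 and 0.933 FPKM with bleomycin plus ST045849, at 3.85, 1.64 and 1.03 FPKM with bleomycin, and at 0, 0.0261 and 0.025 FPKM with vehicle. It rose by 1.54 ± 0.38 (limma adjusted p = 0.0403) with bleomycin and 1.65 ± 0.38 (adjusted p = 0.0224) with bleomycin plus ST045849. The first call was lost without bleomycin replicate 1 or 2 or any vehicle library, and the second without ST045849 replicate 2 or vehicle replicate 2 or 3 (adjusted p 0.0628 to 0.141).

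The other 5 genes of this role were too low to test. Rsad2, for the antiviral enzyme viperin, was at 0.674, 0.524 and 0.536 FPKM with bleomycin plus ST045849, at 1.32, 0.366 and 0.582 FPKM with bleomycin, and was listed at 0 in all 3 vehicle libraries. Mx1 was listed at 0 in the same vehicle libraries and in bleomycin replicate 3, and was at 0.825 FPKM in bleomycin replicate 1 and at most 0.167 FPKM elsewhere. Cmpk2, a nucleotide kinase whose gene lies 12751 bases from that of Rsad2 and runs away from it on the other strand, was at 0.279 to 0.531 FPKM with bleomycin plus ST045849, 0.177 to 0.73 FPKM with bleomycin and 0.0549 to 0.109 FPKM with vehicle, with no overlap with vehicle. Gbp3 and Gbp7 lie beside Gbp2 on chromosome 3. Gbp3 was at 0.466 to 0.661 FPKM with bleomycin plus ST045849, 0.552 to 1.76 FPKM with bleomycin and 0.0935 to 0.127 FPKM with vehicle. Gbp7, with 12.7% of its 50-base stretches in other genes, was at 2.2 FPKM in bleomycin replicate 1 and between 0.0367 and 0.346 FPKM in the other 8 libraries, so its groups overlapped.

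Parp9 and Dtx3l encode a partner pair, a member of the ADP-ribosyltransferase family and a ubiquitin ligase, and their genes overlap by 682 bases on opposite strands of chromosome 16. Parp9 was at 5.36, 5.97 and 3.73 FPKM with bleomycin plus ST045849, at 7.09, 4.88 and 5.24 FPKM with bleomycin, and at 1.6, 1.36 and 2.13 FPKM with vehicle. Dtx3l was at 2.05, 1.28 and 1.25 FPKM with bleomycin plus ST045849, at 3.1, 1.91 and 1.84 FPKM with bleomycin, and at 0.519, 0.492 and 0.518 FPKM with vehicle. Dtx3l had every vehicle library under 1 FPKM and so entered the test only through its higher libraries. Both genes rose, Parp9 by 1.31 ± 0.21 (limma adjusted p = 0.00673) and Dtx3l by 1.10 ± 0.19 (adjusted p = 0.01) for bleomycin against vehicle. For bleomycin plus ST045849 against vehicle the log2 changes were 1.15 ± 0.21 (limma adjusted p = 0.00968) and 0.73 ± 0.19 (adjusted p = 0.0397). Leaving out vehicle replicate 2 ended the first call of Dtx3l (0.0525) and the second of Parp9 (0.0563), and the second call of Dtx3l held only without bleomycin replicate 1 (0.0517 to 0.141 without each other library). The antisense overlap covers 9.4% of the exon bases of Parp9 and 8% of those of Dtx3l, and whether the counting used strand is not given in the sources used here. Parp14, 54966 bases away, was not tested, with 0.105 to 0.312, 0.166 to 0.856 and 0.0285 to 0.0921 FPKM with bleomycin plus ST045849, bleomycin and vehicle.

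Of the 5 remaining genes, Xaf1 and Rtp4 rose in both comparisons with vehicle, where 4.2% and 8.11% of all tested genes rose. Rtp4 and Ifi44 had every vehicle library under 1 FPKM and so entered the test only through their higher libraries. Xaf1, which encodes an interferon-induced partner of the apoptosis inhibitor XIAP, was at 9.7, 17.7 and 8.36 FPKM with bleomycin plus ST045849, at 11.1, 7.72 and 7.13 FPKM with bleomycin, and at 1.08, 1.33 and 2.01 FPKM with vehicle. Its log2 changes were 1.96 ± 0.28 (limma adjusted p = 0.00384) and 2.34 ± 0.28 (adjusted p = 0.00143) for bleomycin and for bleomycin plus ST045849. Rtp4, a receptor transport protein with antiviral action, had means of 4.93 ± 1.5, 4.94 ± 3.68 and 0.66 ± 0.122 FPKM (SD, n = 3 each) with bleomycin plus ST045849, bleomycin and vehicle. It was called with a limma adjusted p of 0.0264 for bleomycin, lost without bleomycin replicate 2 or any vehicle library (0.0638 to 0.101), and 0.013 for bleomycin plus ST045849, lost without vehicle replicate 2 (0.0619). Since 11.6% of its 50-base stretches also stand in the overlapping gene Gm45338, its level is uncertain. Ifi27, for a small mitochondrial protein, was the member with the highest FPKM, 174, 258 and 146 with bleomycin plus ST045849, 157, 126 and 75.7 with bleomycin, and 99.3, 61.1 and 46.6 with vehicle. The bleomycin libraries overlapped those of vehicle for Ifi27 (0.79 ± 0.35, limma adjusted p = 0.271) and Ifi35 (0.84 ± 0.30, adjusted p = 0.161), and both rose with bleomycin plus ST045849 against vehicle (1.5 ± 0.35, adjusted p = 0.0246, and 1.42 ± 0.30, adjusted p = 0.0174). Both of these calls were lost without vehicle replicate 2 or 3, and that of Ifi27 also without ST045849 replicate 2 (adjusted p 0.0791 to 0.109). Ifi44 was at 2.61 to 5.88 FPKM with bleomycin plus ST045849, 1.76 to 6.23 FPKM with bleomycin and 0.378 to 0.963 FPKM with vehicle, with log2 changes of 1.26 ± 0.36 (limma adjusted p = 0.0758) for bleomycin and 1.44 ± 0.36 (adjusted p = 0.032, and 0.0578 to 0.107 without ST045849 replicate 2 or 3 or any vehicle library) for bleomycin plus ST045849.

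How many of these genes were called for bleomycin against vehicle depended on single libraries. The count of 14 became 6 without bleomycin replicate 1, 6 without bleomycin replicate 2, 6 without vehicle replicate 1, 4 without vehicle replicate 2 and 6 without vehicle replicate 3, and it lay between 11 and 17 without each of the other 4 libraries. The rises among all tested genes moved in the same direction, from the 523 of the full fit down to 220, 182, 294, 154 and 179 in those 5 fits in the same order. Isg15, Ifit1, Xaf1 and Parp9 were called in all 9 of these fits, and of these Ifit1 entered the test only through its higher libraries. Under the other processing settings, Ddx58 was called in 2 of 10, Ifit3b in 4 of 9 and Mx2 in 5 of 9. Some genes not called in the full fit were called there: Irf7 and Dhx58 in 6 of 9 each, Oas1a in 4 of 9 and Stat2 in 2 of 10. Ifi44 was called in 1 of 9, and Ifi27 and Ifi35 in 1 of 10 each. Each of the 24 tested genes kept a higher average with bleomycin in every fit that included it, and the stricter filter kept only 10 of them. Much of this was fixed in advance. Leaving out a library with ST045849 or adding the replicate block does not change this difference. A gene whose bleomycin libraries all lie above its vehicle libraries cannot change sign when 1 library is left out. With no filter on low values, which brings in all 33 genes, 5 were called where 1.39% of 30298 genes rose. The 5 were Ifit1, Irf9, Xaf1, Parp9 and Dtx3l. The other calls of the full fit were lost there, among them Isg15 (limma adjusted p = 0.0555), Gbp2 (0.0519), Ifih1 (0.0802), Usp18 (0.0836), Rtp4 (0.0974) and Bst2 (0.153). The call of Bst2 was also lost with the stricter filter and with median-of-ratios scaling.

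**Figure D3:**
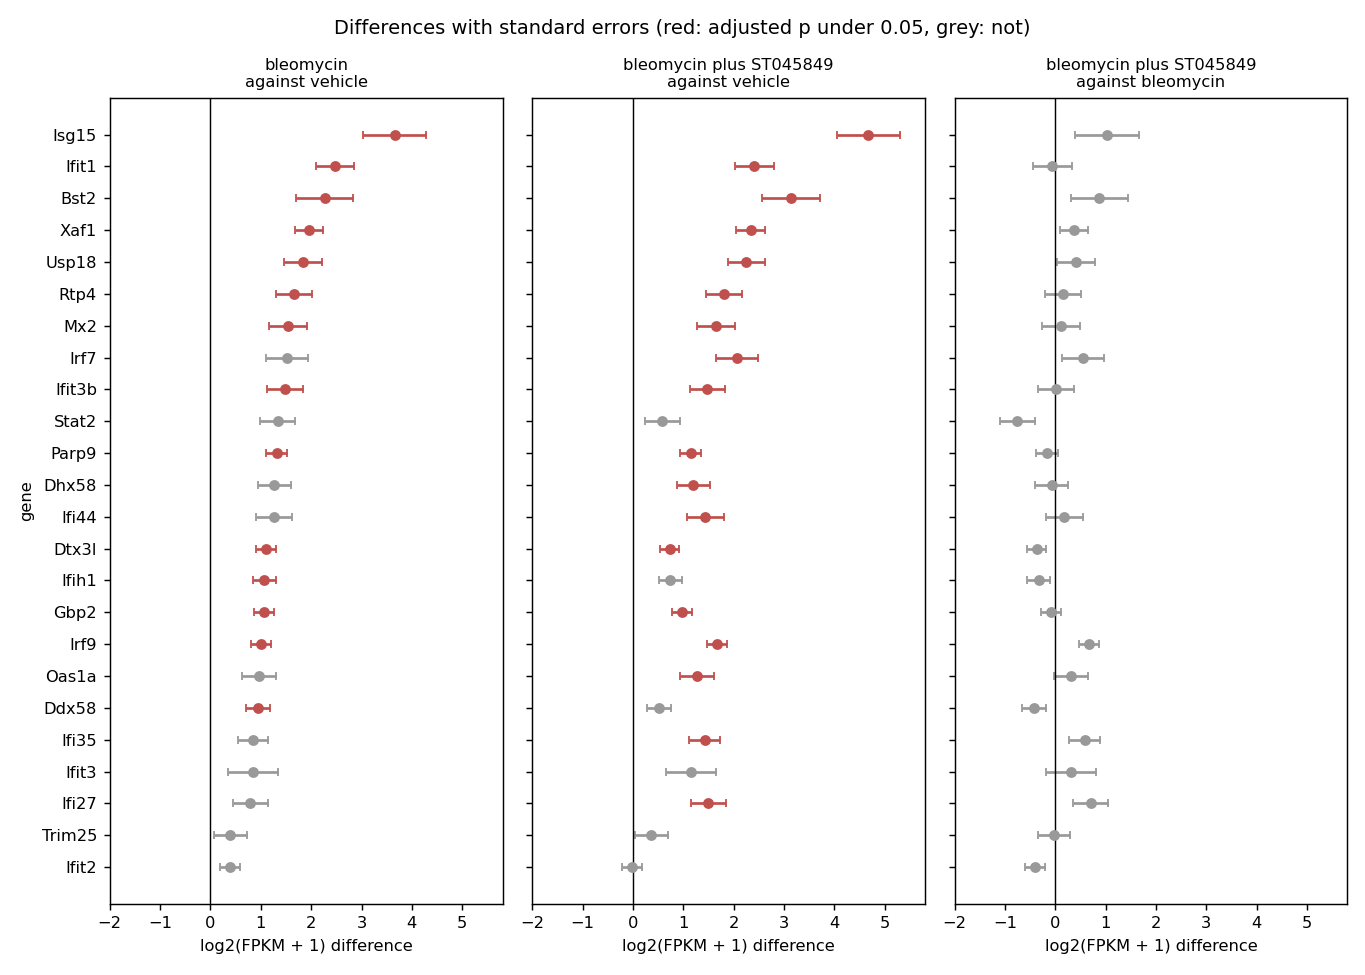
Differences of log2(FPKM + 1) of the 24 tested genes, with standard errors, in 1 panel for each of bleomycin against vehicle, bleomycin plus ST045849 against vehicle and bleomycin plus ST045849 against bleomycin; red points passed an adjusted p of 0.05 in limma and grey points did not. The panels hold 14, 18 and 0 red points, and Isg15 lies farthest from 0 in the panels against vehicle, at 3.65 and 4.68.

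Bleomycin plus ST045849 against bleomycin, which asks what the inhibitor added, gave no call among these genes. None of the 24 tested passed an adjusted p of 0.05 in limma, where none of the 12441 tested genes did, although 2804 genes (22.5%) and 1 of the 24, Irf9, were under an unadjusted p of 0.05. Averages were higher with ST045849 for 14 genes and lower for 10, with a median log2 change of 0.13 against 0.06 for all tested genes. Irf9 was the only gene of the 33 whose 3 libraries with ST045849 all lay above the bleomycin libraries, as did 8.61% of genes, and none had them all below, as did 6.76%. The 95% interval for Isg15 ran from -0.37 to 2.41 on the log2 scale, for Bst2 from -0.38 to 2.13 and for Ddx58 from -0.95 to 0.10, so that log2 rises of more than 2 in Isg15 and Bst2 lie within the error of these libraries. In the fit without ST045849 replicate 1, Stat2 alone of the 24 was called (log2 change -1.10, limma adjusted p = 0.0431), where 1332 of all 12441 tested genes rose and 893 fell.

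Libraries of the same number in these 2 groups deviated together over all genes, with correlations of 0.466, 0.481 and 0.5, and unlike numbers gave -0.32 to -0.172. Levels were first centred within each group of 3 libraries. Where same numbers are positive, some unlike numbers must then be negative, so that contrast was partly fixed in advance. Against vehicle, however, unlike numbers reached 0.567 (ST045849 replicate 1, vehicle replicate 2) and 0.568 (ST045849 replicate 2, vehicle replicate 1). A correlation of this size thus does not show that a number marks a pair, and the labels do not state it. The comparison was also fitted on the 2 groups with the replicate number as a block, a pairing chosen from these same data. In that fit Irf9 rose by 0.66 ± 0.20 (limma adjusted p = 0.0404), Ifi27 rose by 0.71 ± 0.22 (adjusted p = 0.0473) and Stat2 fell by 0.75 ± 0.18 (adjusted p = 0.0236), where 11.3% of all tested genes rose and 8% fell. The differences of log2(FPKM + 1) within pairs 1, 2 and 3 were 0.46, 1.09 and 0.44 for Irf9, 0.14, 1.03 and 0.94 for Ifi27, and -0.69, -0.61 and -0.96 for Stat2. For Isg15 they were -0.46, 2.24 and 1.29, and for Bst2 -0.48, 2.06 and 1.04. Pair 1 thus went the other way from pairs 2 and 3 for these 2 genes. The same signs were seen in longer genes, among them Irf7 (3776 exon bases), Xaf1 (4689 exon bases) and Ifi44 (6129 exon bases), so this was not particular to short genes. Among the 24 tested genes all 3 pairs were higher with ST045849 for Irf9 and Ifi27, and all 3 were lower for Stat2, Ifit2, Ddx58, Dtx3l and Ifih1. The share of all tested genes with 1 sign in all 3 pairs was not counted, so no result is read from this list. The lower genes except Ifit2 had at least 5000 exon bases, as did Irf9. Of all tested genes of that length, 1371 of 5058 were higher in the fit of all 9 libraries. For Ifit2, Ddx58, Dtx3l and Ifih1 the values are given next. These 4, which were not called, had differences of -0.39, -0.58 and -0.24 for Ifit2, -0.33, -0.44 and -0.50 for Ddx58, -0.43, -0.35 and -0.34 for Dtx3l, and -0.43, -0.05 and -0.51 for Ifih1.

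Exon length moved with this comparison. Over the 24 tested genes Spearman's rho between exon length and log2 change was -0.65, and over 12432 tested genes it was -0.60; genes are not independent replicates, and the 2 values come from the same libraries. All 6 tested genes of under 2000 exon bases (Isg15, Bst2, Ifi27, Ifi35, Ifit3 and Oas1a) were higher with ST045849, with a median log2 change of 0.64, against 2 of the 7 of at least 5000 bases, whose median was -0.33. Of all tested genes, 1928 of 2241 short and 1371 of 5058 long ones were higher. The slope of log2 level on length, in log2 units per 10-fold length, was 0.06, -0.70 and -0.46 in the libraries with ST045849, 0.32, 0.13 and 0.31 with bleomycin, and -0.24, 0.34 and 0.25 with vehicle. The 2 lowest slopes were those of ST045849 replicates 2 and 3, followed by vehicle replicate 1. With the length trend removed from each library and the same block, none of the 24 genes was called: the limma adjusted p was 0.0775 for Irf9, 0.0722 for Stat2 and 0.322 for Ifi27, where 0.627% of genes rose and 0.74% fell. In that fit rho was -0.20 over the 24 genes. The part of RNA length in the differences was not tested further.

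**Figure D4:**
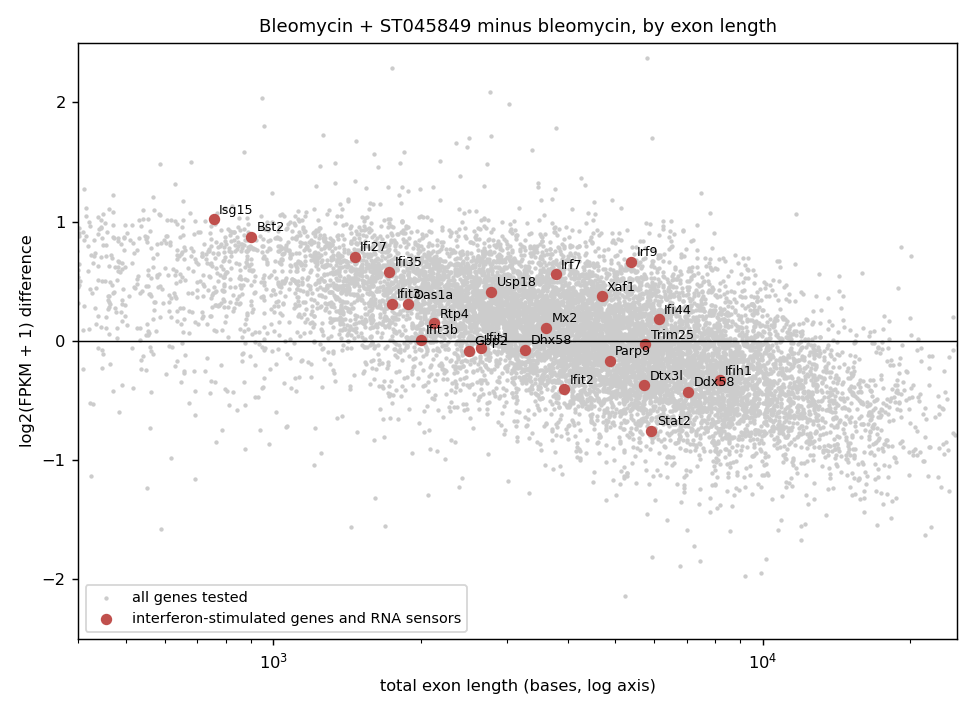
Log2 change for bleomycin plus ST045849 against bleomycin on the vertical axis and exon length in bases on a log horizontal axis, with the 24 tested genes named over all 12432 tested genes with a length, of which 319 lie outside the axes. Short genes such as Isg15 (756 bases) and Bst2 (903 bases) lie above 0 and long ones such as Stat2 (5926 bases) and Ddx58 (7050 bases) below it; Irf9 (5386 bases) lies above.

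Bleomycin plus ST045849 against vehicle shared its vehicle libraries with the first comparison, and its values are given beside those above. Of the 24 tested genes 18 rose, none fell and 6 were not called, where 8.11% of all tested genes rose and 1.74% fell. The median log2 change was 1.43 against 0.19 for all tested genes, and 29 of the 33 genes had all 3 libraries with ST045849 above all 3 of vehicle, as did 14.3% of genes above 0 FPKM, and none had the reverse, as 4.76% did. The genes not called were Ifit2, Ifit3, Stat2, Ifih1, Ddx58 and Trim25. Of the 10 tested genes with every vehicle library under 1 FPKM, which entered the test only through their higher libraries, 9 were called. Among the 11 with all vehicle libraries at 1 FPKM or more, 6 were called. Isg15, Ifit1, Irf9, Usp18, Bst2 and Xaf1 were called whichever of the 9 libraries was left out. Ifit1 and Usp18 are among those 10 genes, and the choice of genes to test was not repeated in these fits. Under the other processing settings Dtx3l was called in 2 of 9, Oas1a and Dhx58 in 3 of 9 each, Ifi27 in 4 of 10, and Ifi44 and Gbp2 in 5 of 9 each. The count of 18 became 11 without ST045849 replicate 2, 7 without vehicle replicate 2 and 8 without vehicle replicate 3, and was 15 to 19 without each of the other 6. In those 3 fits 533, 254 and 307 of all tested genes rose, against 1009 in the full fit. With the length trend removed the count was 9, where 462 of all tested genes rose, and with no filter 6 of 33 were called where 1.85% of 30298 genes rose. The 6 were Isg15, Ifit1, Irf9, Usp18, Xaf1 and Parp9, and Bst2 was not called in that fit (limma adjusted p = 0.0545).

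In the 2 groups that received bleomycin, most of the genes shared 1 highest or 1 lowest library. Bleomycin replicate 1 was the highest of its group for all 33 genes, where it was so for 25.4% of all tested genes, and bleomycin replicate 3 was the lowest for 23, against 26.3% of all tested genes. Of the libraries with ST045849, replicate 2 was the highest for 22 genes and replicate 1 for 11, against 34.1% and 31.4% of all tested genes. Replicate 3 was the highest for none, against 34.5%, and the lowest for 27, against 23.5% of all tested genes. The vehicle libraries were each the highest for 9 to 14 genes and the lowest for 7 to 15. The genes sit in the same cells and libraries, so these counts are not independent of each other. The mean of log2(FPKM + 1) over the 33 genes was 2.27, 2.61 and 1.92 with bleomycin plus ST045849, 2.73, 2.06 and 1.80 with bleomycin, and 1.09, 1.08 and 1.03 with vehicle. Every library that received bleomycin was above the vehicle libraries. The vehicle libraries lay close together on this scale, which flattens genes near 0, and 11 to 13 of the 33 genes reached 1 FPKM in them. The summed FPKM of the 33 genes was 379, 672 and 291 with bleomycin plus ST045849. It was 442, 283 and 189 with bleomycin, and 147, 111 and 93.7 with vehicle.

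The ligands of the pathway were near or at 0. Of 21 genes for type I, type II and type III interferons, 16 were listed at 0 in all 9 libraries and none reached the level for testing; 8 of their 189 values were above 0 and the highest was 0.0796 FPKM, in a bleomycin library. Ifnb1, for interferon beta, was at 0.0372 FPKM in ST045849 replicate 2 and listed at 0 in the other 8 libraries. Among receptors and signalling genes, of 16 tested none was called for bleomycin against vehicle, with 7 under an unadjusted p of 0.05, as were 17.4% of all tested genes. For bleomycin plus ST045849 against vehicle 3 of the 16 rose, where 8.11% of all tested genes did. These were Ifngr2, a chain of the interferon gamma receptor (log2 change 1.13 ± 0.19, limma adjusted p = 0.00657), Ifnar2, a chain of the type I receptor (1.03 ± 0.20, adjusted p = 0.011), and Il10rb, a chain of the type III receptor (0.64 ± 0.17, adjusted p = 0.0364). Of the 16, 2 were called for bleomycin against vehicle without ST045849 replicate 1 or 2, and the count of 3 became 5 without ST045849 replicate 1 and 1 without vehicle replicate 2. Ifnar2 had means of 42 ± 3.51, 33.3 ± 0.799 and 20.3 ± 4.26 FPKM (SD, n = 3 each) with bleomycin plus ST045849, bleomycin and vehicle.

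Of 17 other tested genes of DNA and RNA sensing, none was called for bleomycin against vehicle, with 4 under an unadjusted p of 0.05, against the same 17.4% of all tested genes. For bleomycin plus ST045849 against vehicle 3 of the 17 rose: Ifi204, a sensor of DNA (0.96 ± 0.24, limma adjusted p = 0.0311), Trex1, the exonuclease that clears cytoplasmic DNA (0.92 ± 0.24, adjusted p = 0.0354), and Rnaseh2c, a subunit of RNase H2 (1.13 ± 0.30, adjusted p = 0.0376). These calls stand beside 8.11% of all tested genes, and none of the 17 was called with median-of-ratios scaling, with TPM scaling, with no filter, on the 2 groups alone or with the length trend removed. None was called in this comparison without ST045849 replicate 2 or 3 or without vehicle replicate 2 or 3, and 1 without bleomycin replicate 3. For bleomycin against vehicle 2 were called without ST045849 replicate 1 and 1 without ST045849 replicate 3. Sting1 had means of 6.02 ± 1.22, 6.43 ± 0.824 and 5.36 ± 0.391 FPKM with bleomycin plus ST045849, bleomycin and vehicle (SD, n = 3 each), and Cgas was under 0.75 FPKM in every library. Mavs, the adaptor of RIG-I and MDA5, had means of 12.7 ± 1.7, 12.4 ± 0.727 and 8.91 ± 0.526 FPKM in those groups and was not called (limma adjusted p = 0.205 for bleomycin against vehicle).

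Other interferon-stimulated genes outside the 33 also differed from vehicle. Of 27 tested, 11 rose and none fell for bleomycin against vehicle, and 15 rose and none fell for bleomycin plus ST045849 against vehicle, where 4.2% and 8.11% of all tested genes rose. With the length trend removed the counts were 7 and 6, and with median-of-ratios scaling the first was 7. Lgals3bp, for a secreted galectin-binding protein, was at 143, 203 and 119 FPKM with bleomycin plus ST045849, at 147, 121 and 71.8 FPKM with bleomycin, and at 21.8, 25.8 and 18.4 FPKM with vehicle (log2 changes 2.74 ± 0.29, limma adjusted p = 0.000992, and 2.27 ± 0.29, adjusted p = 0.00283). Tap1, a peptide transporter of antigen presentation, had means of 5.99 ± 2.03, 5.86 ± 0.58 and 1.49 ± 0.177 FPKM (SD, n = 3 each) with bleomycin plus ST045849, bleomycin and vehicle, with a limma adjusted p of 0.00377 and 0.00416 for the first and second group against vehicle. Phf11d rose by 2.02 ± 0.31 and 1.55 ± 0.31 in the same comparisons (limma adjusted p = 0.00433 and 0.0183). Irgm2, an immunity-related GTPase, rose by 1.32 ± 0.24 with bleomycin (limma adjusted p = 0.0115), and Lgals9, for galectin-9, rose by 1.82 ± 0.27 with bleomycin plus ST045849 (adjusted p = 0.00393). For bleomycin plus ST045849 against bleomycin, none of the tested genes of these 3 lists was called in the limma fit of all 9 libraries, where 3 of the 27 were under an unadjusted p of 0.05. On the 2 groups with the replicate block, 3 of the 27, 3 of the 17 sensing genes and 0 of the 16 receptor and signalling genes were called, where 11.3% of all tested genes rose and 8% fell, and none was with the length trend also removed. Without ST045849 replicate 1 the counts were 6 of 27, 4 of 17 and 0 of 16. The count of 11 became 3 and 4 without bleomycin replicates 1 and 2, and 4, 2 and 3 without vehicle replicates 1, 2 and 3. The count of 15 became 9 without ST045849 replicate 2, 6 without vehicle replicate 2 and 8 without vehicle replicate 3.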

How the data were processed

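The deposited values were FPKM per gene from the authors, 1 table a library. Per the labels' protocols, the libraries were stranded and selected for poly(A) RNA; the submitters' processing notes name Trimmomatic, STAR and GRCm38. Versions, the counting program, its use of strand, its annotation and the FPKM denominator were not given in these sources. FPKM hold no counts, so the depth is unknown and no counting interval was computed. Genes at 1 FPKM or more in at least 3 libraries were tested on log2(FPKM + 1) with limma 3.58.1 in R 4.3.3, 1 fit over the 3 groups, with Benjamini-Hochberg adjustment over all tested genes; the steps were tested on simulated data. The numbers in the labels were taken to pair bleomycin plus ST045849 with bleomycin, since same-numbered libraries deviated together (correlations 0.466, 0.481 and 0.5 over genes). In the other comparisons they did not in every pair, and libraries of unlike number there reached 0.568. The labels do not state a pairing, so that block rests on an assumption, and the pairing was chosen from these same data. Alternatives covered the pseudocount, filter, scaling, samples, block, a length trend (loess on log exon length) and each library left out. Exon lengths and positions came from GENCODE vM21. Up to 4 genes called per further list and direction are named by smallest adjusted p. Sting1, Cgas, Mavs, Eif2ak2 and Adar are named outside that rule. The 33 genes and the lists were chosen with earlier results of these data known.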

Additional observations from a re-analysis of the deposited data

How the results depend on the processing

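For bleomycin against vehicle, each tested gene of the 33 stayed higher in all fits that included it, which was partly fixed in advance as described above. The count of 14 called was 4 to 17 with single libraries left out, 5 of 33 with no filter and 3 of 10 with a stricter filter (mean of at least 5 FPKM). It was 18 with a pseudocount of 0.1 and 18 on the 2 groups alone, where 571 and 873 of all genes rose. TPM scaling and the replicate block over all 9 libraries each gave 16, where 548 and 636 rose. Removing the length trend gave 11, where 382 rose. Median-of-ratios scaling gave 9, moved the median of all genes to -0.05 and turned their 523 rises and 84 falls into 320 and 151. The 18 called for bleomycin plus ST045849 against vehicle became 7 to 19 with libraries left out, 6 with no filter, 6 of 10 with the stricter filter, 11 on the 2 groups alone with the replicate block, and 9 with the length trend removed, with and without that block; median-of-ratios scaling gave 13 and turned 1009 rises and 216 falls of all genes into 486 and 403. A pseudocount of 0.1 and the replicate block over all 9 libraries each gave 19, where 1023 and 1092 of all genes rose. The 2 groups alone gave 16 and TPM scaling 14, where 492 and 493 rose. Whether the numbers pair vehicle libraries is unknown, with same-numbered correlations from -0.519 to 0.546, so these block counts are given only here. For bleomycin plus ST045849 against bleomycin, 3 were called on the 2 groups with the replicate block, and 0 or 1 with libraries left out. The cause of these moves was not tested. No value that changed sign was called. In that last comparison, TPM scaling, which moved the median of all genes to -0.19, gave Ifit3b -0.20, Ifi44 -0.026, Mx2 -0.10 and Rtp4 -0.073; median-of-ratios gave Ifit3b -0.042. Removing the length trend, with or without the block, gave Ifit3 -0.078, Ifit3b -0.35, Oas1a -0.061, Mx2 -0.018, Rtp4 -0.19 and Trim25 0.068. Over the fits without single libraries, values on both sides of 0 ran from -0.42 to 0.48 for Ifit1, -0.23 to 0.70 for Ifit3, -0.36 to 0.48 for Ifit3b, -0.12 to 0.61 for Ifi44, -0.0011 to 0.88 for Irf7, -0.16 to 0.55 for Oas1a, -0.29 to 0.47 for Mx2, -0.33 to 0.27 for Dhx58, -0.23 to 0.62 for Rtp4, -0.27 to 0.034 for Gbp2 and -0.39 to 0.26 for Trim25, and, for bleomycin plus ST045849 against vehicle, -0.15 to 0.15 for Ifit2. With 3 libraries a group and no counts, precision rests on the spread between libraries.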
